A study of Mus musculus with 12 samples.

Results

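F4/80lo macrophages (Mϕ) taken at day 6 of zymosan-induced peritonitis were compared between mice given CIII, an inhibitor of the microsomal PGE2 synthase mPGES-1, and mice given vehicle (VEH). The comparison holds 6 of the 12 libraries of the series, 3 VEH and 3 CIII, and 8394 of the 47643 genes listed for these cells, namely all genes with a mean of at least 10 normalised read counts over the 6 libraries. A normalised read count is the number of sequenced mRNA molecules of a gene in a library after division by that library's size factor. All mice were C57BL/6 females of 8 to 12 weeks. All received zymosan A (5 mg/kg, i.p.), a particle of yeast cell wall that sets off a peritonitis which resolves by itself. Starting on day 1 the CIII group was then injected with the compound (25 mg/kg) every day, and the VEH group with the carrier of 1% Tween-80, 0.5% carboxymethyl cellulose and 0.9% NaCl. There was no group without zymosan, so the values describe what CIII added to an ongoing resolution. In both groups the cells were sorted as CD45+ and CD11b+, low in F4/80 and MerTK and bearing MHC class II protein (high in the labels, positive in the gating scheme of the study). That scheme sets aside CD11c+ MHCII+ dendritic cells and Ly6G+ neutrophils before F4/80lo Mϕ are taken. Whether mice were pooled is not given in the sources used here, and libraries are named by treatment and replicate number.

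Prostaglandin E2 (PGE2) is made from arachidonic acid in successive steps. Phospholipase A2 frees the fatty acid, the cyclooxygenases (Ptgs1 and Ptgs2) convert it to prostaglandin H2, and mPGES-1 (Ptges) converts that to PGE2. PGE2 acts through the receptors EP1 to EP4 (Ptger1 to Ptger4), of which EP2 and EP4 raise cAMP in Mϕ and dampen their cytokine and chemokine output. In the inflamed peritoneum F4/80lo Mϕ derive largely from blood monocytes, present antigen on MHC class II and take up dying neutrophils, whereas F4/80hi Mϕ are mainly the resident cells of the cavity.

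The libraries held from 426624 (CIII number 2) to 3389448 reads on genes (VEH number 3), so 1 read was worth between 0.333 and 2.28 normalised counts, and weak genes in CIII number 2 carried the largest counting error. A count of 0 allows up to 3 reads, or 0.999 to 6.85 normalised counts over the 6 libraries, counting error only. In both treatments the library numbered 3 differed from the other 2. The predicted gene Gm42418 took 14.3% and 2.65% of their reads, against at most 0.540% in the other 4. The mitochondrial genome took between 6.41% and 14.3% of the reads. VEH number 3 was also low in several genes that numbers 1 and 2 express strongly, such as Retnla with 8.33 normalised counts against 1806 and 4082. For this reason differences within each number are given for the main gene groups.

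The markers of Mϕ in general were present, all 8 with a mean above 10, and their summed level was 10315 to 16215 normalised counts with VEH and 14324 to 15166 with CIII. Ccr2, the receptor that brings monocytes out of the marrow, had 402 to 1557 normalised counts with VEH and 551 to 2183 with CIII. Of the resident peritoneal markers, the defining factor Gata6 was near 0 (0.333 to 8.15 with VEH and 0.709 to 4.57 with CIII), while Timd4 was present at 86.3 to 137 and 80.0 to 124. The summed level of the 10 resident markers was 179 to 1593 with VEH and 417 to 1380 with CIII. Dendritic cell markers summed to 10.7 to 266 with VEH and 68.5 to 233 with CIII, with Flt3 at 1.33 to 25.7 and 3.32 to 34.3. All 5 tested dendritic cell markers had a positive log2 difference, with a median of 1.27, and 0.69, 0.20 and 2.52 within numbers 1, 2 and 3, and without number 3, 4 were higher and 1 lower. Neutrophil markers were low in both groups, 25.7 to 93.9 with VEH and 50.4 to 84.5 with CIII over 14 markers, with Ly6g at 0 to 0.333 and 0 to 0.709. B cell markers summed to 64.0 to 216 and 55.3 to 290.1, markers of T and NK cells to 16.7 to 43.1 and 26.5 to 61.7, those of eosinophils and mast cells to 1.16 to 16.7 and 0 to 2.84, and those of mesothelial cells to 0 to 1.16 and 0. Of 9 tested markers of monocyte-derived and small peritoneal Mϕ, 3 were higher (Cx3cr1, Itgb7 and the transcription factor Irf4, 1.30, SE 0.36) and 2 lower with CIII (Retnla and Fcrls) at an unadjusted limma p under 0.05, where 3.41% and 3.63% of all genes were. The ranges of the summed levels in VEH and CIII overlapped in every one of these marker lists.

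Each gene was tested with limma on the log2 of the normalised count plus 1, with the replicate number as a block (two-sided, Benjamini-Hochberg adjustment over 8394 genes). At an adjusted p under 0.05, 0 genes differed between CIII and VEH (0%), and the smallest adjusted p was 0.306. At an unadjusted p under 0.05 there were 591 genes (7.04%), of which 286 had more mRNA with CIII (3.41%) and 305 less (3.63%), where a rate of 0.05 would give 419.7 genes. Without the block there were 95 higher and 114 lower genes, fewer than that rate gives. With each library rescaled to the same total the split was 369 higher and 199 lower, and with a minimum mean of 50 it was 214 and 133. In 341 genes (4.06%) all 3 CIII libraries lay above all 3 VEH libraries, and in 385 genes (4.59%) below them. Whatever their p, 4068 of the 8394 genes had a positive log2 difference and 4326 a negative one. CIII was higher within all 3 replicate numbers in 1208 genes (14.4%) and lower within all 3 in 1283 (15.3%). Without the libraries of number 3, 50 genes had an adjusted p under 0.05, and without those of number 1, 2 genes. Those fits rest on 2 libraries per group. On the whole reads recovered from the files, edgeR with the same block called 0 genes and DESeq2 called 18 of the 4488 genes to which it gave an adjusted p (0.401%). The genes the results turn on are therefore given with their values in every library, and "higher" or "lower" states the direction of a difference that did not pass the adjusted threshold. With 20 possible arrangements of the 6 libraries, the smallest p that an exact permutation test allows is 0.1. With the block, the p-values measure how far the CIII minus VEH differences spread between the replicate numbers, which may be partly technical. In sorted bulk RNA fewer cells of a kind and less RNA per cell cannot be told apart.

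**Figure D1:**
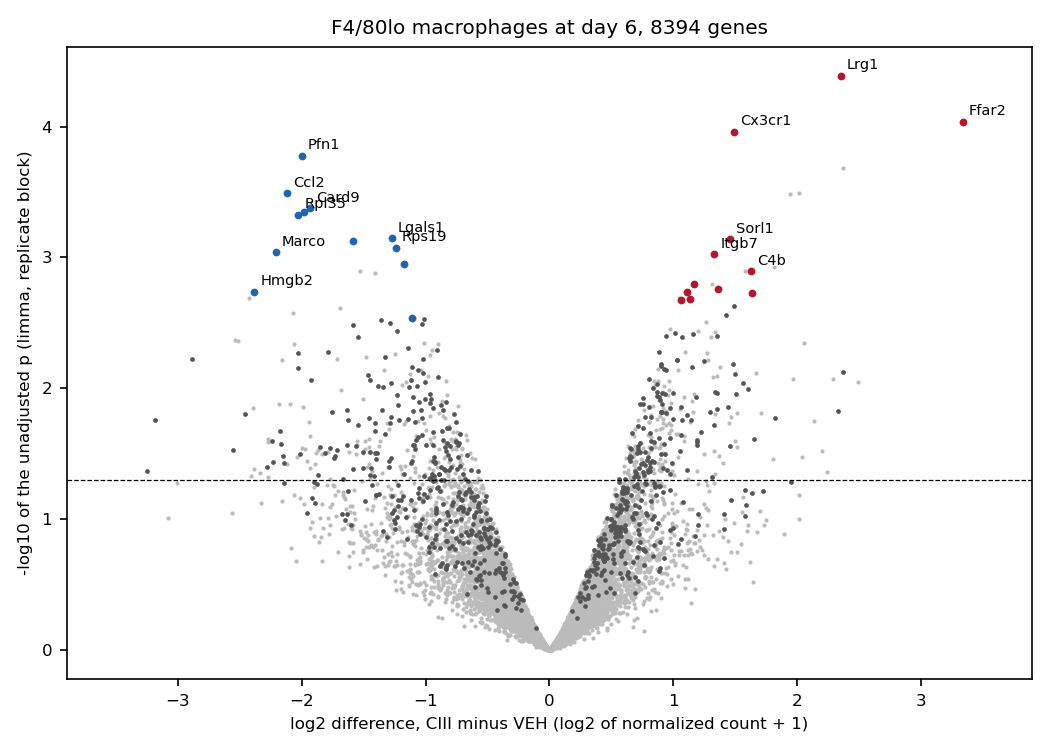
Log2 difference of CIII minus VEH (x axis, log2 of the normalised count plus 1) against the −log10 of the unadjusted limma p (y axis) for 8394 genes in F4/80lo Mϕ. Dark grey points are genes whose 3 CIII and 3 VEH libraries did not overlap, red and blue points the 12 higher and 12 lower genes of these with the strongest limma result, and the dashed line marks a p of 0.05. Lrg1, Ffar2 and Cx3cr1 lie highest on the right, Pfn1 and Ccl2 on the left.

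The enzymes and receptors of the PGE2 pathway itself gave no gene with an unadjusted p under 0.05. Of 14 genes listed, 6 had a mean of at least 10, of which 5 were higher and 1 lower with CIII, with a median log2 difference of 0.17 against −0.018 over all genes. Ptges, the target of CIII, was near the limit of detection in every library, with 8.15, 0 and 2 normalised counts in VEH numbers 1, 2 and 3 and 1.42, 6.85 and 3.32 in the CIII libraries. Ptgs2 was at 0 in all libraries but VEH number 3, which had 0.666. Ptgs1, the constitutive cyclooxygenase, had 76.8, 112 and 70.3 with VEH and 67.4, 82.2 and 170.2 with CIII. Of the receptors, Ptger4 (EP4) had 38.4, 69.3 and 45.0 with VEH and 68.8, 68.5 and 66.3 with CIII, a log2 difference of 0.45 (SE 0.33). Ptger2 (EP2) had 24.4, 6.42 and 14 with VEH and 14.9, 32.0 and 28.7 with CIII. The treatments overlapped for both receptors. Ptger1 and Ptger3 had 0 reads in all 6 libraries. Among the other prostanoid and lipoxygenase genes, 1 of 12 tested had an unadjusted p under 0.05, near the 7.04% over all genes. It was Ltb4r1, the high-affinity leukotriene B4 receptor, with 109, 261 and 133 with VEH and 162, 487 and 301 with CIII (log2 difference 0.88, SE 0.26, limma adjusted p = 0.635). Of 13 tested genes that cAMP and CREB induce in many cells, 1 had an unadjusted p under 0.05, again near 7.04%, the G protein regulator Rgs2, which was higher with CIII (0.76, SE 0.26).

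The 12 higher and 12 lower genes with the smallest p were chosen among genes whose treatments did not overlap. Their lack of overlap was therefore set by the choice. Among the genes that were higher with CIII, the smallest p belonged to Lrg1, which encodes a secreted leucine-rich glycoprotein known as a modulator of TGF-β signalling. Lrg1 had 32.6, 12.8 and 15.7 normalised counts in VEH numbers 1, 2 and 3 and 118, 73.1 and 116 in the CIII libraries. All CIII libraries lay above all VEH libraries, and the log2 difference was 2.36 (SE 0.35, limma adjusted p = 0.306). Ffar2 (chr7:30818348-30823775 in GRCm38), a G protein-coupled receptor for short-chain fatty acids, had 8.15, 8.99 and 2.66 with VEH and 182, 34.3 and 53.1 with CIII. Its log2 difference of 3.34 (SE 0.55, limma adjusted p = 0.306) was the highest of the 24 genes chosen this way, and the 3 CIII libraries differed among themselves by more than the VEH libraries did. Sorl1, a sorting receptor of the endosome, differed little within each treatment, with 39.6, 37.2 and 32.6 with VEH and 92.2, 126 and 90.6 with CIII (1.46, SE 0.31, limma adjusted p = 0.449).

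**Figure D2:**
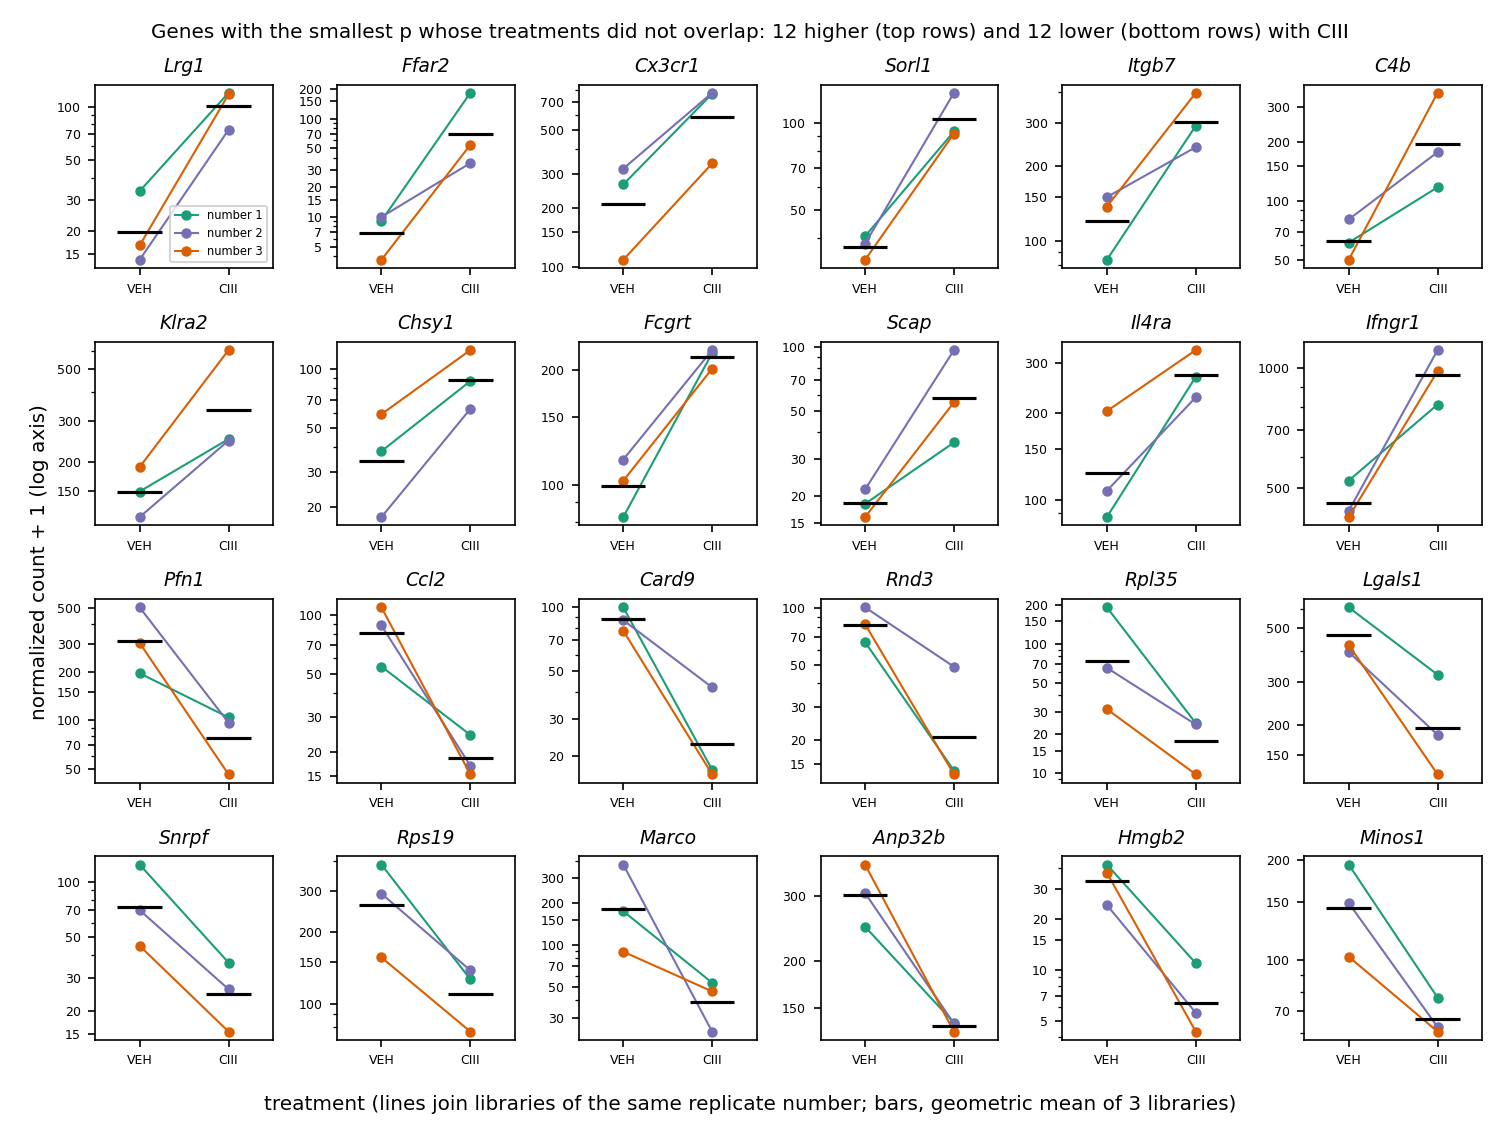
Normalised count plus 1 (y axis, log scale, each panel with its own range) by treatment (x axis) for the 12 higher and 12 lower genes that had the smallest p and no overlap of treatments. Each colour is a replicate number, lines join the VEH and CIII library of that number, and bars give the geometric mean of 3 libraries. Every line slopes upward for the 12 higher genes and downward for the 12 lower ones, as their choice by lack of overlap requires. The slopes are unequal.

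The fractalkine receptor and several adhesion genes were among the higher genes. Cx3cr1 (chr9:119901616-120069879, minus strand), the receptor for fractalkine, had 263, 317 and 108 normalised counts with VEH and 768, 777 and 337 with CIII. The libraries of number 3 were the lowest of their treatment, yet the difference within each number was alike, 1.54, 1.29 and 1.64 on the log2 scale (fitted 1.49, SE 0.25, limma adjusted p = 0.306). The gene of its ligand fractalkine, Cx3cl1, had 0 reads in all 6 libraries. Itgb7 (chr15:102215995-102231944), the β7 integrin chain that pairs with α4 or αE, had 82.6, 149 and 136 with VEH and 290.1, 238 and 395 with CIII (1.33, SE 0.30, limma adjusted p = 0.466). Of 16 tested genes of the fractalkine axis, leukocyte integrins and their ligands, 13 were higher and 6 had an unadjusted p under 0.05, all 6 higher, against 3.41% over all genes. The median log2 difference of the list was 0.45, and 0.60, 0.15 and 0.57 within numbers 1, 2 and 3. The other 4 were Itgb5 and Itgal, integrin chains, Icam1, the counter-receptor of the αLβ2 integrin, and Fn1, the matrix protein fibronectin. Fn1 had 8641, 9928 and 2189 with VEH and 17001, 13122 and 9198 with CIII, so that CIII number 3 lay below VEH number 2 (1.15, SE 0.38). Icam1 had 20.9, 51.3 and 34.0 against 60.3, 57.1 and 85.1 and did not overlap (0.98, SE 0.37). Without number 3, 3 members had an unadjusted p under 0.05. The study chose Cx3cr1 and Itgb7 on these same libraries, so their place on the list is not independent evidence of its direction. Of 5 other chemokine receptors tested, 0 had an unadjusted p under 0.05.

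Cytokine receptors and their partners were higher in 4 of 19 tested genes of cytokines and their receptors, and lower in 0, at an unadjusted p under 0.05, against 3.41% and 3.63% over all genes. Ifngr1, the ligand-binding chain of the interferon-γ receptor, had 521, 438 and 422 normalised counts with VEH and 810.1, 1110.2 and 983 with CIII (1.06, SE 0.26, limma adjusted p = 0.535). Csf1r, the receptor for the Mϕ growth factors CSF-1 and IL-34, had 801, 1076 and 551 against 1477, 1339 and 1198 (0.77, SE 0.27). Tnfrsf1a, TNF receptor 1, had 257, 317 and 218 against 483, 397 and 415 (0.72, SE 0.26). In each of these 3 genes the CIII libraries lay above all VEH libraries. Il10ra, the IL-10 receptor chain, had 72.1, 82.2 and 166 against 153, 251 and 177 and overlapped (0.92, SE 0.33). Il4ra, the shared IL-4 and IL-13 receptor chain, stood in the list of alternative activation, where it had 86.1, 107 and 203 with VEH and 267, 226 and 331 with CIII (1.13, SE 0.28, limma adjusted p = 0.535). The median of the cytokine list was 0.12.

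Further genes on the higher side came from several roles. C4b, complement component 4, had 60.5, 79.6 and 49.3 normalised counts with VEH and 116, 176 and 353 with CIII (1.63, SE 0.38, limma adjusted p = 0.478). Reads of C4b cannot be fully told apart from those of its near-identical neighbour copy, so its level is uncertain. Of 13 complement genes tested, 3 had an unadjusted p under 0.05, all higher, against 3.41% over all genes, among them C4b and C3ar1, the receptor for C3a (0.61, SE 0.26). Plcg2, a phospholipase that acts below the zymosan receptor Dectin-1, had 129, 237 and 113 against 311, 313 and 334 (1.07, SE 0.29). Fcgrt, the neonatal Fc receptor that recycles IgG, had 81.5, 116 and 102 against 219.9, 224 and 200.1 (1.11, SE 0.27). Klra2, a Ly49-family lectin receptor, had 149, 116 and 189.9 against 250.4, 247 and 604 (1.17, SE 0.28). Chsy1, which builds chondroitin sulphate chains, had 37.2, 16.7 and 58.0 against 85.8, 61.7 and 124 (1.36, SE 0.33). Scap, the escort of the sterol-sensing transcription factors SREBP, had 17.5, 20.5 and 15 against 34.8, 95.9 and 54.2 (1.64, SE 0.40). Scap and Apoe, the apolipoprotein that carries cholesterol out of Mϕ, were the 2 of 22 tested genes of lipid handling with an unadjusted p under 0.05, against 7.04% over all genes. Apoe had 3654, 2951 and 419.7 with VEH and 3990.2, 8871 and 1846 with CIII, with a wide overlap. The median of the lipid list was −0.079.

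The lower side held several chemokine ligands. Of 16 tested CC and CXC ligands, 12 were lower with CIII and 4 higher, with a median log2 difference of −0.89, and −0.21, −0.26 and −1.05 within numbers 1, 2 and 3. At an unadjusted p under 0.05 there were 4 lower genes and 1 higher gene, against 3.63% and 3.41% over all genes. Ccl2 (chr11:82035571-82037453), the main attractant of CCR2-bearing monocytes, had 53.5, 87.3 and 108 normalised counts with VEH and 23.4, 16.0 and 14.4 with CIII. The groups were well apart (−2.12, SE 0.41, limma adjusted p = 0.343). Ccl7, another CCR2 ligand of the same gene cluster, had 18.6, 25.7 and 34.3 against 4.97, 0 and 6.63 (−2.89, SE 0.85). Ccl12, also a CCR2 ligand, had 5.82, 10.3 and 42.0 against 2.84, 0 and 0 (−3.25, SE 1.41). The values of Ccl7 and Ccl12 in the CIII libraries rest on few reads, so their fitted differences depend on the pseudocount. Ccl24, an eotaxin that attracts eosinophils through CCR3, had 64.0, 213 and 0.999 with VEH and 4.97, 22.8 and 0 with CIII. It was lower within each number and overlapped between them, since number 3 had almost none in either treatment (−2.54, SE 0.70). Cxcl9, an interferon-γ-induced ligand of CXCR3, was the higher gene, with 0, 0 and 57.0 against 7.09, 13.7 and 50.9. It differed in numbers 1 and 2 and not in number 3. Pf4 (platelet factor 4, which Mϕ also make) had 446, 311 and 16.0 against 162, 361 and 7.74 and Ccl6 5868, 5933 and 5307 against 5108, 4989 and 2461. Neither reached an unadjusted p under 0.05. Ccl7, Ccl12 and Ccl24 had CIII means of 3.87, 0.946 and 9.27, so they passed the minimum of 10 only through the VEH libraries. Their count among the 4 lower genes was thus partly set by the filter and is no support. Without number 1, 2 ligands had an unadjusted p under 0.05, both lower, and without number 3 there were 4, all lower.

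Pfn1, Rnd3 and Lgals1 were among the lower genes. Pfn1 (chr11:70651850-70654644, minus strand), the actin-monomer binding protein profilin, had 195, 503 and 302 normalised counts with VEH and 104, 95.9 and 45.3 with CIII (−2.0, SE 0.35, limma adjusted p = 0.343). Rnd3, an atypical small GTPase that opposes stress fibres, had 65.2, 100.1 and 81.3 against 12.8, 48.0 and 12.2 (−1.98, SE 0.40, limma adjusted p = 0.36). Lgals1, the β-galactoside binding lectin galectin-1, had 606, 397 and 424 against 319.9, 180.5 and 124 (−1.27, SE 0.27, limma adjusted p = 0.449). None of these genes overlapped between treatments, which was part of the rule that chose them. Of 27 tested actin genes 3 had an unadjusted p under 0.05, all lower, against 3.63% over all genes, namely Pfn1, the monomer-sequestering thymosin Tmsb4x (−0.76, SE 0.29) and the filament-capping protein Capg (−0.84, SE 0.33). The median of the list was −0.17, and 0.21, −0.39 and −0.23 within numbers 1, 2 and 3, so the sign differed between numbers.

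Of the genes that sense zymosan, the adaptor Card9 was lower. Card9 (chr2:26352176-26360918, minus strand) passes the signal of Dectin-1 and related fungal receptors to NF-κB. It had 98.9, 86 and 76.6 normalised counts with VEH and 16.3, 41.1 and 15.5 with CIII (−1.94, SE 0.38, limma adjusted p = 0.36). The lowest VEH library had more than the highest CIII library. Card9 and Plcg2, which lay on opposite sides, were the 2 of 20 tested genes of zymosan sensing with an unadjusted p under 0.05, near the 7.04% over all genes, and the median of the list was 0.12. Marco, a scavenger receptor for bacteria and particles, had 173, 376 and 88.3 against 52.5, 22.8 and 45.3 (−2.21, SE 0.49, limma adjusted p = 0.466). In the list of alternative activation, 3 of 12 tested genes were lower and 1 higher at an unadjusted p under 0.05, against 3.63% and 3.41% over all genes. Retnla, a secreted product of IL-4-activated Mϕ, had 1806, 4082 and 8.33 with VEH and 169, 366 and 16.6 with CIII. It was lower by 3.41 and 3.48 on the log2 scale within numbers 1 and 2 and higher by 0.91 within number 3, where it was nearly absent. Without number 3, Retnla had the smallest adjusted p of all genes (limma, adjusted p = 4.98e-13). That fit has 2 libraries per group, so the p rests mostly on the variance limma borrows from other genes. With all 6 libraries the Retnla difference was −1.99 (SE 0.68, limma adjusted p = 0.641, exact permutation p = 0.6). The scavenger and hyaluronan receptors Stab1 (−0.82, SE 0.36) and Lyve1 (−1.96, SE 0.82) were the others and overlapped widely. Fcrls, which was lower like Retnla in numbers 1 and 2, had 84.9, 217 and 0.999 with VEH and 12.1, 6.85 and 2.21 with CIII.

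Genes of protein synthesis were lower by small amounts over a broad list. Of 82 tested cytoplasmic ribosomal protein genes, 67 were lower with CIII and 24 had an unadjusted p under 0.05, all lower, against 3.63% over all genes. The median log2 difference was −0.41, and −0.63, −0.37 and −0.18 within numbers 1, 2 and 3. The count was 7 without number 1, 15 without number 2, 26 without number 3 and 15 with each library rescaled to the same total. Rpl35 had 189.7, 64.2 and 30.3 normalised counts with VEH and 23.4, 22.8 and 8.84 with CIII (−2.03, SE 0.41, limma adjusted p = 0.36). Rps19 had 385, 290.1 and 156 against 126, 137 and 75.2 (−1.24, SE 0.27, limma adjusted p = 0.466). Neither overlapped between treatments, which was part of the rule that chose both. The VEH libraries alone spanned 30.3 to 189.7 for Rpl35. Ribosomal protein genes have many processed copies in the genome, so reads may be shared between a gene and its copies. Snrpf, a core protein of the spliceosome, had 123, 69.3 and 44.0 against 35.5, 25.1 and 14.4 (−1.58, SE 0.34). Anp32b, a histone chaperone, had 247, 304 and 363 against 135, 135 and 128 (−1.17, SE 0.27). Minos1, a subunit of the complex that shapes the mitochondrial inner membrane, had 193, 148 and 101 against 75.9, 61.7 and 59.7 (−1.11, SE 0.29). Respiratory chain and ATP synthase genes of the nucleus were lower in 65 of 76 tested, where 4326 of all 8394 genes were lower. Of these, 6 had an unadjusted p under 0.05, against 3.63% lower over all genes. The median was −0.33 and alike within the numbers (−0.37, −0.25 and −0.30). Mitochondrial ribosomal proteins were lower in 46 of 68 tested, with a median of −0.34. At an unadjusted p under 0.05 there were 5, all lower, against 3.63% lower over all genes. The 7 tested genes of the mitochondrial genome had a median of −0.34, but −1.23 within number 1 and 0.16 and 0.21 within numbers 2 and 3. Chaperones of the endoplasmic reticulum were lower in 14 of 22 tested. Of these, 6 had an unadjusted p under 0.05 (Manf, Creld2, Hsp90b1, Calr, Pdia4 and Sdf2l1), against 3.63% lower over all genes. The count was 2 without number 2. Manf, a secreted stress-induced chaperone cofactor, had 81.5, 133 and 105 against 54.6, 16.0 and 58.6 (−1.46, SE 0.45). The median of that list was −0.099.

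All 28 tested genes of DNA replication and mitosis had a negative log2 difference (27 with each library rescaled to the same total), with a median of −0.70, but the libraries of number 3 did not share it. Within numbers 1 and 2 the median was −1.41 and −1.04, and within number 3 it was 0.46. Hmgb2, a chromatin protein of dividing cells, was the clearest, with 40.7, 23.1 and 36.3 normalised counts with VEH and 9.93, 4.57 and 3.32 with CIII (−2.39, SE 0.58, limma adjusted p = 0.535). Rrm1, a subunit of ribonucleotide reductase, had 41.9, 33.4 and 16.0 against 18.4, 2.28 and 1.11 (−2.51, SE 0.70). These were the 2 members with an unadjusted p under 0.05, against 3.63% lower over all genes, and without number 3 there were 15, all lower, where 377 of all 8394 genes were lower. Birc5, a regulator of chromosome segregation, had 298, 122 and 3.66 with VEH and 34.0, 38.8 and 12.2 with CIII, and Cdk1, the mitotic kinase, had 73.3, 62.9 and 0.999 against 3.55, 2.28 and 12.2. In these 2 genes, chosen after their values were seen, VEH number 3 lay below all CIII libraries, unlike in Hmgb2 and Rrm1.

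**Figure D3:**
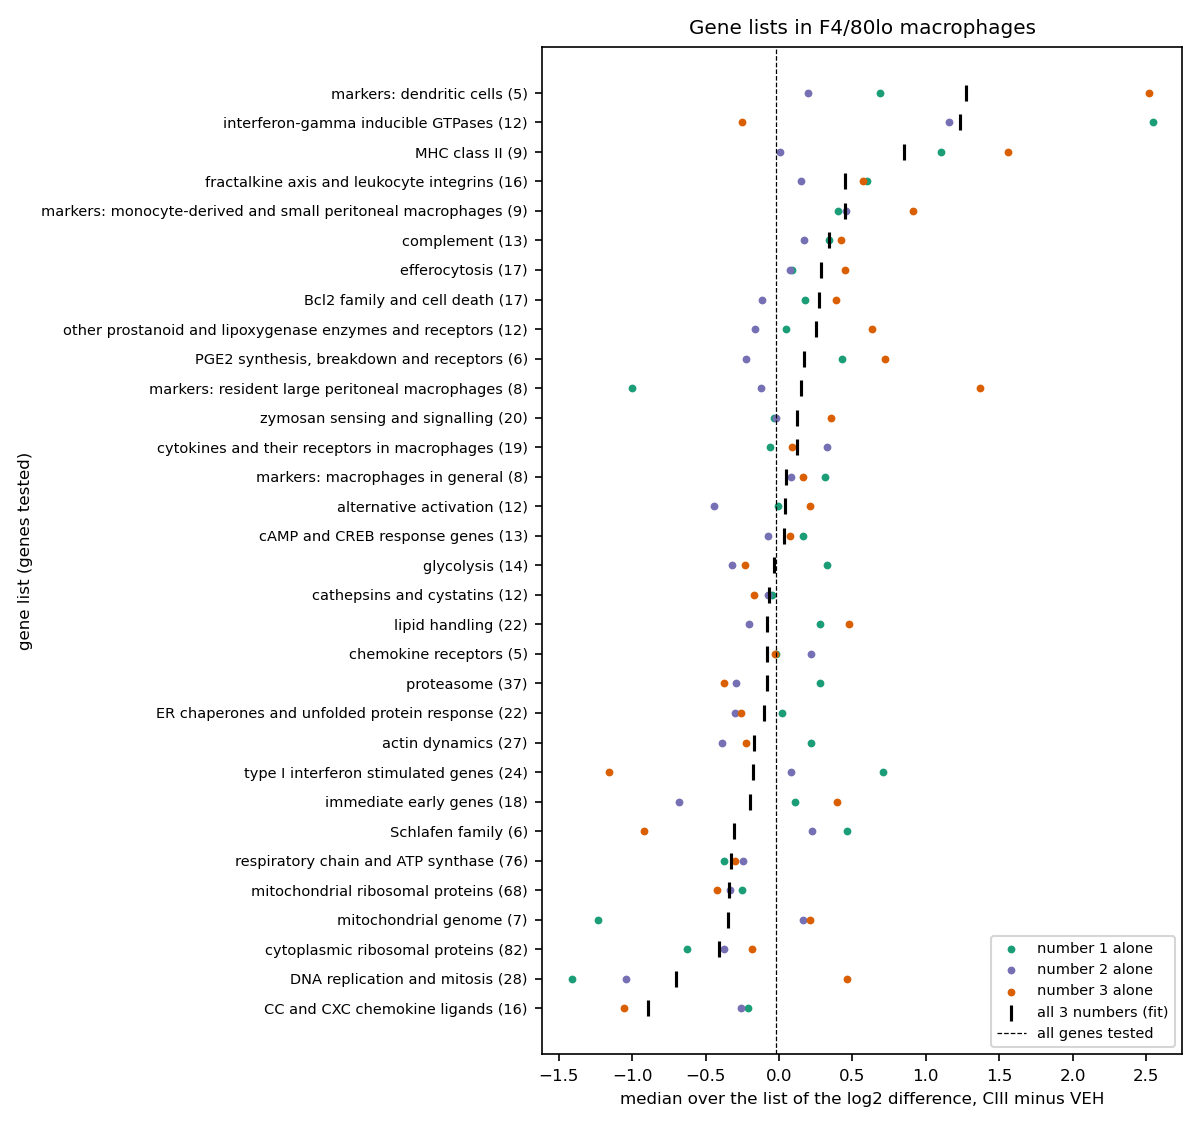
Median log2 difference of CIII minus VEH (x axis) over each gene list with at least 5 genes tested (y axis, number of genes in brackets), for all 3 replicate numbers (black bars) and within each number (points), with the median of all genes as a dashed line. For ribosomal and respiratory chain genes the 3 points are all below 0, while for the GTPases, DNA replication and interferon lists number 3 lies on the other side of 0 from number 1.

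MHC class II genes were all on the higher side. All 9 tested genes had a positive log2 difference, with a median of 0.85, and 6 had an unadjusted p under 0.05, all higher, against 3.41% over all genes. H2-Aa, an α chain, had 4603, 4099.9 and 679.8 normalised counts with VEH and 7749.8, 5496 and 5046 with CIII (1.35, SE 0.44, limma adjusted p = 0.641). H2-Eb1, a β chain, had 1683, 2123 and 647 against 3919.9, 2170.2 and 4427 (1.34, SE 0.43, limma adjusted p = 0.641). H2-Ab1, the partner of H2-Aa, had 3602, 4147 and 768 against 7731, 4165 and 5272 (1.29, SE 0.45). The CIII libraries lay above all VEH libraries in these 3 genes and in Cd74, the invariant chain (0.74, SE 0.31), 4 of 9 genes against 4.06% over all genes. Within number 2 the gap was small in H2-Ab1 (4165 against 4147), H2-Eb1 (2170.2 against 2123) and Cd74 (2543 against 2488). VEH number 3 held far less class II mRNA than the other VEH libraries. The median was 1.10 within number 1, 0.006 within number 2 and 1.56 within number 3, and without number 3, 0 members had an unadjusted p under 0.05 in limma. The peptide-loading chains H2-DMa (0.85, SE 0.33) and H2-DMb1 (0.87, SE 0.32) overlapped between treatments. The 5 tested dendritic cell markers were also all higher, with medians of 0.69, 0.20 and 2.52 within the numbers, and the part of such cells in the class II difference was not tested. Ciita, the transactivator of class II genes, had 18.6, 23.1 and 61.3 against 53.9, 9.14 and 129 and did not follow the chains within number 2. The sort selected cells bearing MHC class II protein in both treatments.

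The interferon-γ-inducible GTPases, which attack the vacuoles of intracellular microbes, were higher in 11 of 12 tested genes, with a median log2 difference of 1.23. At an unadjusted p under 0.05 there were 5 genes, all higher, against 3.41% over all genes, and in 0 of the 12 genes were the treatments free of overlap. Gbp2b had 10.5, 1.28 and 113 normalised counts with VEH and 42.6, 9.14 and 447 with CIII. Its level differed widely between replicate numbers, but the difference within each was nearly the same, 1.92, 2.15 and 1.97 on the log2 scale (fitted 2.02, SE 0.39, limma adjusted p = 0.343). Without the block its adjusted p was 0.999 in limma. Igtp had 32.6, 15.4 and 149.6 against 300.1, 41.1 and 282, higher by 3.16, 1.36 and 0.91 within the numbers (1.81, SE 0.41, limma adjusted p = 0.478). Gbp3 had 86.1, 55.2 and 234 against 331, 135 and 308 (1.20, SE 0.32). Gbp4 (2.29, SE 0.71) and Iigp1 (2.14, SE 0.76) were higher within numbers 1 and 2 and about level within number 3, where Iigp1 had 547 with VEH and 444 with CIII. The median of the list was 2.55, 1.16 and −0.25 within numbers 1, 2 and 3. The count of 5 was 8 without number 3 and 3 without number 1 or number 2. The reads of these related GTPases may partly be shared. Of 24 type I interferon-stimulated genes tested, 2 had an unadjusted p under 0.05, both lower (Ifit1 and Oasl1), against 3.63% over all genes, and the median was −0.18, and 0.71, 0.08 and −1.16 within the numbers. VEH number 3 was the highest of the VEH libraries in the GTPases named here.

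**Figure D4:**
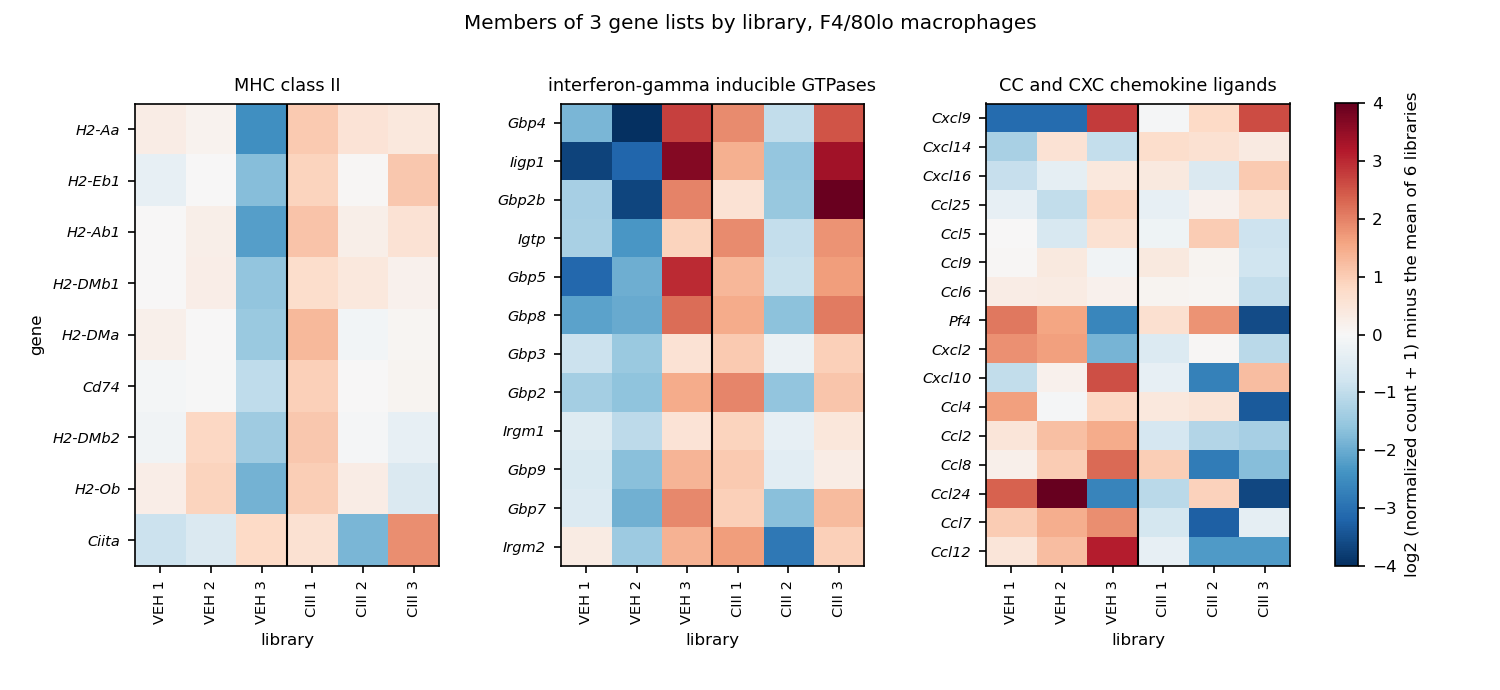
Log2 of the normalised count plus 1 minus the gene's mean over 6 libraries (colour) for the tested members of 3 lists (rows) in each library (columns). VEH number 3 is the lowest library in most class II genes and among the highest in the GTPases, and Ccl2, Ccl7 and Ccl12 are below their mean in all CIII libraries.

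Promoter sequences are shown for the GTPase and class II genes because the members of each list stood together. They are the 250 bases before the start site in RefSeq (GRCm38.p6), written 5′ to 3′ on the strand of the gene. In the first 3, capitals mark the core of the interferon-stimulated response element, searched as GAAA, any 2 bases and GAAA on both strands (TTTC, any 2 bases and TTTC on the other).
Gbp2b: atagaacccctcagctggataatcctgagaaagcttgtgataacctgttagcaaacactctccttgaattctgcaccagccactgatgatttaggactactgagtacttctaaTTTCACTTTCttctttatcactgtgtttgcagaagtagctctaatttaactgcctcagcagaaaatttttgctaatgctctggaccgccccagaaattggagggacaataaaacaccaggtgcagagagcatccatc
Gbp3: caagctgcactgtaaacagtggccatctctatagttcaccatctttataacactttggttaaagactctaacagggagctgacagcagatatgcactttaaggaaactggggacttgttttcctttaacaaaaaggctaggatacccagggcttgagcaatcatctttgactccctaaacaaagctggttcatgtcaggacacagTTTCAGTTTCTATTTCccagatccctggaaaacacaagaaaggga
Igtp: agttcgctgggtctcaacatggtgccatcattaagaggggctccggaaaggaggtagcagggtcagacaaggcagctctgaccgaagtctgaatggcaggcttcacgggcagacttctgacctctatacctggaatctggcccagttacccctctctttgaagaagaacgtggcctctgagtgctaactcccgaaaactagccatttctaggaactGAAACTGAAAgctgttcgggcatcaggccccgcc
These windows are chr3:142594597-142594846, plus strand for Gbp2b, chr3:142559794-142560043, plus strand for Gbp3, which is the one of its 2 RefSeq starts that holds the motif, and chr11:58199306-58199555, plus strand for Igtp. The motif begins 137 bases before the start in Gbp2b and 34 bases before it in Igtp. In Gbp3 it occurs 2 times with overlap, 45 and 39 bases before the start. RefSeq entries were found for 8 of the 12 tested GTPase genes, and all 8 held the motif in at least 1 entry, against 2.98% of all 32851 promoters. No entry was found for Gbp4, Gbp8, Gbp9 and Iigp1. In the next 2, capitals mark the Y box of class II promoters, the site of the factor NF-Y, searched as CTGATTGG on both strands (CCAATCAG on the other).
H2-Aa: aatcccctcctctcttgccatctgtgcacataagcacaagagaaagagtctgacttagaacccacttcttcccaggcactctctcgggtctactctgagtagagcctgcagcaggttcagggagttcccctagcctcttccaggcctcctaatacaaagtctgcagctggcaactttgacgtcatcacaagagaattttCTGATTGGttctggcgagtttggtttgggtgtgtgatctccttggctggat
H2-Eb1: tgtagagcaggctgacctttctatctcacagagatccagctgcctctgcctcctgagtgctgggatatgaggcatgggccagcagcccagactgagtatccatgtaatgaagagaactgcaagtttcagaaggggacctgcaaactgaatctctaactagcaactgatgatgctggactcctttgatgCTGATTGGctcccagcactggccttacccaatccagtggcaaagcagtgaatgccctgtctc
The windows are chr17:34287824-34288073, minus strand for H2-Aa and chr17:34305617-34305866, plus strand for H2-Eb1, and the motif begins 51 and 62 bases before the start. It was in 2 of the 6 tested class II genes with an entry and in 3.83% of all promoters. The interferon motif was in 0 of these 6, and the Y box in 0 of the 8 GTPase genes. A match says that the letters are in the window and nothing about which factor was bound in these cells.

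Several other lists each held from 0 to 6 such genes, where 3.41% of all genes were higher and 3.63% lower at this threshold. Of 17 tested genes of efferocytosis, the uptake of dying cells, 2 were higher at an unadjusted limma p under 0.05, Axl and the phosphatidylserine receptor Cd300lf (1.17, SE 0.38), and 2 lower, Stab1 and Elmo1, which activates Rac during engulfment (−0.74, SE 0.30). Of 37 proteasome genes 1 was higher, the interferon-induced subunit Psmb9 (0.73, SE 0.30), and 5 were lower, with the lid subunit Psmd11 at 106, 77.0 and 109.6 normalised counts against 56.0, 16.0 and 55.3 (−1.36, SE 0.36). Of 18 immediate early genes 2 were higher. Ier5 had 312, 425 and 97.9 against 648, 708 and 251 (1.05, SE 0.26), and Klf2, a transcription factor that restrains inflammation, had 1518, 1726 and 780.1 against 1905, 3009 and 1389.6 (0.65, SE 0.27). Of 12 cathepsins and cystatins 1 was higher, the lysosomal protease Ctsh (0.65, SE 0.26), and 1 lower, the inhibitor Cstb. Of 6 Schlafen genes 1 was lower, and of 14 glycolytic genes 0 had an unadjusted p under 0.05 in limma. The medians of the glycolysis, proteasome, immediate early and Schlafen lists lay between −0.30 and −0.036 and turned sign in at least 1 alternative.

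The study names 20 genes as shared between the subpopulations or as examples, all of which had a mean of at least 10. All but Bcl2, which the study names for F4/80hi Mϕ, were chosen on these libraries, so their directions are described here and support nothing. With CIII 7 were higher and 13 lower, and 17 had an unadjusted p under 0.05. Beyond those given above, the transcription factor Foxo3 had 20.9, 34.7 and 37.3 normalised counts with VEH and 58.2, 54.8 and 99.5 with CIII (1.16, SE 0.35). It was the 1 gene of 17 tested genes of the Bcl2 family and cell death with an unadjusted p under 0.05, below the 7.04% over all genes. Bcl2 itself, which blocks mitochondrial apoptosis, had 34.9, 79.6 and 74.6 against 68.1, 103 and 97.3 and overlapped (0.56, SE 0.31, limma adjusted p = 0.722). Axl, a receptor for apoptotic cells, had 101, 205 and 34.6 against 162, 239.9 and 406, mostly through number 3 (1.47, SE 0.52). Slfn4 of the Schlafen family had 136, 125 and 214 against 27.7, 137 and 25.4, lower in numbers 1 and 3 and not in number 2. Fabp5, a fatty acid carrier, had 81.5, 16.7 and 25.6 against 11.3, 27.4 and 6.63 and was likewise not lower in number 2 (−1.29, SE 0.63, limma adjusted p = 0.702). Ramp3, a partner of calcitonin-family receptors, had 26.8, 35.9 and 0.333 against 4.26, 4.57 and 0 (limma adjusted p = 0.745). The protease inhibitor Cstb, the iron-sulphur cluster protein Bola2, the chaperone Creld2 and Pdap1 did not overlap and were lower by −1.02 (SE 0.30), −1.06 (SE 0.32), −1.10 (SE 0.36) and −1.14 (SE 0.32) on the log2 scale. Fau, a ribosomal protein with a ubiquitin-like leader, was lower by −1.01 (SE 0.28) and overlapped.

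The count tests differed in their calls. The 18 genes of DESeq2 were 9 higher and 9 lower with CIII. In edgeR the smallest adjusted p was 0.1145, with 243 higher and 291 lower genes at an unadjusted p under 0.05. The higher genes of DESeq2 were Ffar2, Lrg1, Cx3cr1, Flt1, Gbp2b, Ly6a, Igtp, Itgb7 and C4b, and the lower ones Pfn1, Ccl24, Marco, Rpl35, Ccl2, Lgals1, Card9, Rnd3 and Rps19. Of the 18, 13 had treatments that did not overlap. Flt1, the receptor VEGFR1, had 2.33, 6.42 and 50.6 with VEH and 19.9, 25.1 and 325 with CIII, and Ly6a, the surface protein Sca-1, had 11.6, 2.57 and 173 against 69.5, 13.7 and 434. Both were named after their values were seen, and both behave like Gbp2b, with levels that differ more between numbers than between treatments and a difference of one sign within each number. Without the block DESeq2 called Ffar2 and Lrg1 (2 genes). Among markers of other cells, the promyelocyte protease Prtn3 was higher with CIII, with 10.5, 1.28 and 4 against 29.1, 29.7 and 18.8 (2.38, SE 0.72), while S100a8, S100a9 and Ly6g were not higher (S100a8 had 7.70 to 25.0 with VEH and 4.26 to 7.74 with CIII). Of the 3 tested neutrophil markers, 2 had a positive log2 difference and 1 a negative one, with a median of 0.074. Cdh1, E-cadherin, a marker of some dendritic cells, had 3.49, 5.13 and 1.67 against 50.4, 22.8 and 6.63 (2.33, SE 0.80). The gating scheme removes dendritic cells by CD11c and neutrophils by Ly6G. The part of other cell types in these differences was not tested.

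The nearest comparison of the series is CIII against VEH in the 3 and 3 libraries of F4/80hi Mϕ, which were scaled by the authors in a table of their own. Over the 7835 genes tested in both, the log2 differences had a Pearson correlation of 0.294 across genes, and 4687 genes (59.8%) had the same sign. Genes are not independent replicates, and the sources used here do not say whether both subpopulations came from the same mice, so this is a description. The difference between the responses, F4/80lo minus F4/80hi, was tested with limma over 12 libraries with a block for each subpopulation and number. It had an adjusted p under 0.05 in 0 genes (smallest 0.891) and an unadjusted p under 0.05 in 433 (5.53%). For Cx3cr1 the difference was 1.49 in F4/80lo Mϕ against 1.71 in F4/80hi Mϕ, and for Itgb7 1.33 and 1.26, so that the responses differed by −0.22 (SE 0.37) and 0.07 (SE 0.45). The CIII libraries of F4/80hi Mϕ had 67.1, 57.7 and 169 normalised counts of Cx3cr1 and the VEH libraries 17.3, 13.1 and 74.4. The median of ribosomal protein genes was −0.41 in F4/80lo Mϕ against −1.16 in F4/80hi Mϕ, that of the respiratory chain −0.33 and −0.92, and that of the GTPases 1.23 and 1.07. That of class II genes was 0.85 over 9 genes in F4/80lo Mϕ and 1.65 over the 7 of them tested in F4/80hi Mϕ. The difference of these medians was not tested. The 5 genes with the smallest p for the difference were Rpl41, a ribosomal protein, with −0.42 in F4/80lo Mϕ against −2.08 in F4/80hi Mϕ, the predicted gene Gm5963 with 0.35 and −1.51, Ckap5, a microtubule polymerase, with −2.42 in F4/80lo Mϕ against 0.79 in F4/80hi Mϕ, Lrp6, a Wnt co-receptor, with −0.86 and 1.04, and Trappc1, a vesicle-tethering subunit, with 1.00 and −0.96. Nothing can be called particular to F4/80lo Mϕ at the adjusted threshold.

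**Figure D5:**
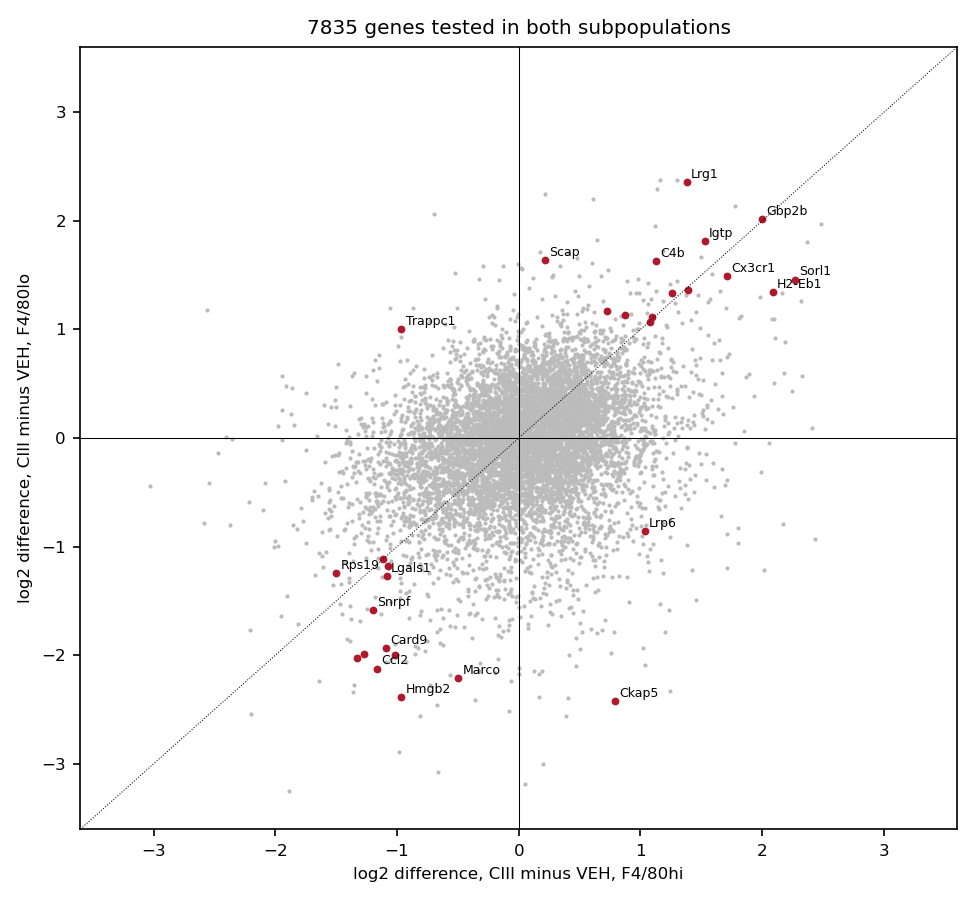
Log2 difference of CIII minus VEH in F4/80hi (x axis) against F4/80lo Mϕ (y axis) for 7835 genes tested in both, with the 24 genes of the plot by library that were tested in both and 6 others in red. Most named genes have the same sign on both axes, and Ckap5, Lrp6 and Trappc1 have opposite signs.

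The minimum of 10 sets where the genes end. Just inside it was Dnaaf2, with a mean of 10.003 normalised counts, and just outside it Rpl36-ps12, with 9.997. Ccl7, Ccl12, Ccl24, Hmgb2, Rrm1, Ffar2 and Cdh1, among others, had a mean under 10 in VEH or CIII and passed through the other. For such genes the filter favours the direction seen. Across all genes tested, 678 had an absolute log2 difference of at least 1, of which 469 were lower and 209 higher with CIII, and the median standard error was 0.39.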

How the data were processed

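Female C57BL/6 mice were the source of all RNA, and groups were taken from the sample titles. Per the study's methods the authors sequenced 3′ ends with molecular identifiers (QuantSeq), trimmed reads with Bbduk, mapped them to GRCm38 with STAR, collapsed identifiers, counted with HTSeq-count and used DESeq2 for differential expression. The deposited values are these normalised counts, a signal with no further transformation. Every value was a whole multiple of 1 read within 0.01 (100%), so reads and depth (426624 to 3389448 per library) were recovered. No row named no gene, and 419 of 47643 rows had no symbol and stayed in the tests.

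Genes with a mean of at least 10 were tested in limma 3.58.1 (R 4.3.3) on log2(value + 1), with a mean-variance trend, the replicate number as a block and Benjamini-Hochberg adjustment. A log2 difference on this scale understates the change of low genes. The numbers, which come from the titles, were taken to pair the samples. Deviations of same-numbered libraries from their group means had correlations of 0.137, 0.304 and 0.565 here and 0.248, 0.481 and 0.677 for F4/80hi cells. Between different numbers they were −0.449 to 0.203 and −0.600 to 0.369. Numbers 2 and 3 lay above these ranges and number 1 lay within them, so the pairing of number 1 was not seen in the values. edgeR 4.0.16 and DESeq2 1.42.0 on the recovered reads were alternatives, beside other scalings, minimums and pseudocounts, no block and each number left out. The list counts with a number left out were chosen after seeing the data. The procedure was tested on simulated data. Figures were drawn with matplotlib 3.10.9.

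Named genes were the 12 higher and 12 lower genes with the smallest p whose treatments did not overlap (predicted genes and pseudogenes left out), the 20 genes the study names, Ffar2, Lrg1, Ccl2, Pfn1 and Card9, up to 4 members of each of 35 gene lists, the 5 genes with the smallest p between subpopulations, and the genes at the minimum. Further members that passed an unadjusted p, and Birc5, Cdk1, Flt1 and Ly6a, were named after their values were seen. The members, lists and tests were chosen with earlier results of these data known. Promoter sequences are from RefSeq (GRCm38.p6).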

Additional observations from a re-analysis of the deposited data

Results flagged for a closer look

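Among the genes chosen for naming, 4 had a log2 difference of CIII minus VEH of one sign in every replicate number of F4/80lo Mϕ and of the opposite sign in every number of F4/80hi Mϕ, with an unadjusted p under 0.05 for the difference between the subpopulations. The difference itself (F4/80lo minus F4/80hi) was tested with the interaction term of limma over 12 libraries, and none of the 4 passed the adjusted threshold (adjusted p = 0.891 for each). Ckap5, Trappc1 and Lrp6 were chosen for naming by their small p for this same difference, so their passing here supports nothing. How many of all genes meet the same rule was not counted. For Ckap5 it was −3.22 (SE 0.70), with 39.6, 14.1 and 103 normalised counts in the F4/80lo VEH libraries, 10.6, 0 and 34.3 in the CIII libraries, and 17.3, 11.8 and 48.2 against 30.3, 28.8 and 62.9 in F4/80hi Mϕ. The value of 0 lies in the shallowest library, where 3 reads are worth 6.85 normalised counts. For Trappc1 it was 1.96 (SE 0.49), with 57.0, 47.5 and 42.3 against 84.4, 180.5 and 61.9 in F4/80lo and 146, 74.5 and 78.6 against 64.3, 58.9 and 29.5 in F4/80hi Mϕ. For Lrp6 it was −1.89 (SE 0.42), with 86.1, 61.6 and 66.9 against 57.5, 25.1 and 39.8 in F4/80lo and 61.2, 112 and 24.1 against 128, 166 and 70.0 in F4/80hi Mϕ. For Ccrl2, a receptor that presents chemerin, it was −2.46 (SE 1.05), with 22.1, 12.8 and 12 against 12.8, 0 and 6.63 in F4/80lo and 5.32, 19.6 and 7.34 against 20.9, 22.8 and 7.66 in F4/80hi Mϕ. Its value of 0 lies in the same shallow library, and its F4/80hi libraries of number 3 barely differed.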

How the results depend on the processing

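Of the 103 genes whose difference the report gives, 99 kept the sign of their log2 difference in each of the 23 alternatives that gave a value. The exceptions, with 0 past an unadjusted p of 0.05 in the main limma test, were Birc5, Pf4, Ciita and Ptgs1. Birc5 had an adjusted p of 8.77e-05 in limma without number 3, a fit on 2 libraries per group. With a number left out, Ciita lay between −0.092 (without number 1) and 1.28 (without number 2) and Ptgs1 between −0.31 (without number 3) and 0.54 (without number 2). Without the block, Birc5 was 0.14 and Pf4 0.14 without VEH number 1, and Pf4 was 0.87 and Ciita −0.39 without CIII number 3, and Ciita 1.45 without CIII number 2. The counts of genes depended on the replicate block. Without it, limma gave 95 higher and 114 lower genes at an unadjusted p under 0.05 (286 and 305 with it) and 123 genes for the difference between subpopulations (433 with it), edgeR 77 and 126, and DESeq2 98 and 131, with 2 genes at the adjusted threshold. With the block, DESeq2 gave 201 higher and 196 lower genes, with 18 at the adjusted threshold. Over all fits that left out a replicate number or a single library there were 66 to 294 higher and 40 to 377 lower genes, 0 to 50 genes at the adjusted threshold (2 without number 1, 50 without number 3) and 287 to 347 genes for the difference between subpopulations. Without the block, leaving out VEH numbers 1, 2 and 3 gave 66, 94 and 252 higher and 40, 78 and 278 lower genes, and leaving out CIII numbers 1, 2 and 3 gave 70, 97 and 88 higher and 140, 98 and 151 lower genes. With no minimum the counts were 460 higher, 726 lower, 31 adjusted, 700 without overlap and lower, and 839 for the difference. More genes entered, but genes tested before were also called, with the same log2 difference and another p, and the cause was not tested. With a minimum of 50 they were 133 lower, 199 and 134 without overlap, and 206 for the difference, with fewer genes tested. Rescaling to the same total gave 369 higher and 199 lower genes, and the cause was not tested. Of 803 medians of gene lists under alternatives, 65 moved by more than the SD of the medians within the numbers. The type I interferon list went from −0.18 to 0.43 and the PGE2 list from 0.17 to −0.036 without number 3, the mitochondrial genome from −0.34 to 0.19 without number 1, and lipid handling from −0.079 to 0.20 without number 2. limma called 0 genes at the adjusted threshold with and without the block. Depth limited genes near the minimum of 10, where 3 reads in the shallowest library are worth 6.85 normalised counts.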
